A study of Mus musculus with 7 samples.

Results

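The genes described here are 34 markers of lymphocytes, found by gene symbol among the 50600 genes counted in RNA from mouse mammary tissue, 3 control glands and 4 tumours of mice with an ECD transgene. They were chosen by what they mark, with earlier results of these data already known. There are 8 B cell genes, 4 genes of antibody production and 14 T cell genes. The others are 5 genes of cytotoxic and natural killer (NK) cells and 3 chemokines of lymphoid tissue. Each symbol matched exactly 1 row of every library's table. The labels call the glands controls and the tumours ECD transgenic, and they class tumours 1a and 1b as adenosquamous, tumour 3 as a spindle cell carcinoma and tumour 4 as papillary. The control genotype, the strain, sex and age of the mice, the promoter of the transgene, and which gland was taken are details the sources used here do not give. Tumour RNA came from a central piece of the tissue, and whether 1 animal carried both tumours 1a and 1b is not stated in the labels. Libraries were treated as separate replicates, so p-values measure only the spread between these libraries.

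Lymphocytes recognise antigen through clonal receptors. B cells carry membrane immunoglobulin with the signalling chains CD79A and CD79B, and after activation they may become plasma cells, which secrete antibody in bulk and lose many B cell surface proteins. T cells carry a receptor that signals through the CD3 chains, with CD4 on helper and regulatory cells and CD8 on cytotoxic cells, while NK cells kill without a clonal receptor. In lymph nodes the chemokines CCL19 and CCL21 draw T cells and CXCL13 draws B cells into separate zones. A mammary gland holds scattered lymphocytes and IgA plasma cells, and the inguinal fat pad of the mouse also holds a lymph node.

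Levels are given as CPM, the rounded counts of a gene scaled to a library of 1000000 after correction for composition (TMM). Library totals ran from 5148438 counts in control gland 1 to 35631279 in control gland 2, with tumours between 5420562 and 28638143. A count of 3, used as the floor for a gene with no counts, was worth between 0.0946 CPM in gland 2 and 1.06 CPM in gland 1. The shallow gland 1 therefore had 19 of the 34 genes at 0 counts, against 0 in gland 2 and in tumour 1a. Transcripts of mitochondrial DNA made up 48.4% to 64.8% of gland counts and 18.3% to 32.6% of tumour counts. The gland libraries held fat cell markers (summed level of 5 genes, 2630 to 4385 CPM), and the tumours held epithelial ones (6 genes, 1034 to 1512 CPM, against 178 to 303 CPM in glands). Skeletal muscle markers (6 genes) summed to 12810 and 24850 CPM in glands 1 and 3, but to 19.5 CPM in gland 2.

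Most of these genes were highest in the same 2 libraries, control gland 2 and adenosquamous tumour 1a, and close to 0 in the other 5. Gland 2 and tumour 1a were the 2 highest libraries for 29 of the 34 genes, an arrangement chosen after seeing the data that 4.23% of all genes with at least 15 counts shared. Both libraries exceeded every other one more than 4-fold for 19 of the 34, against 0.703% of all such genes. The highest level was in gland 2 for 24 genes, in tumour 1a for 9 and in tumour 1b for 1. The 5 genes outside the arrangement were Jchain, Mzb1, Il7r, Gzma and Gzmb. In bulk RNA, fewer cells of a type and less RNA per cell cannot be told apart.

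**Figure D1:**
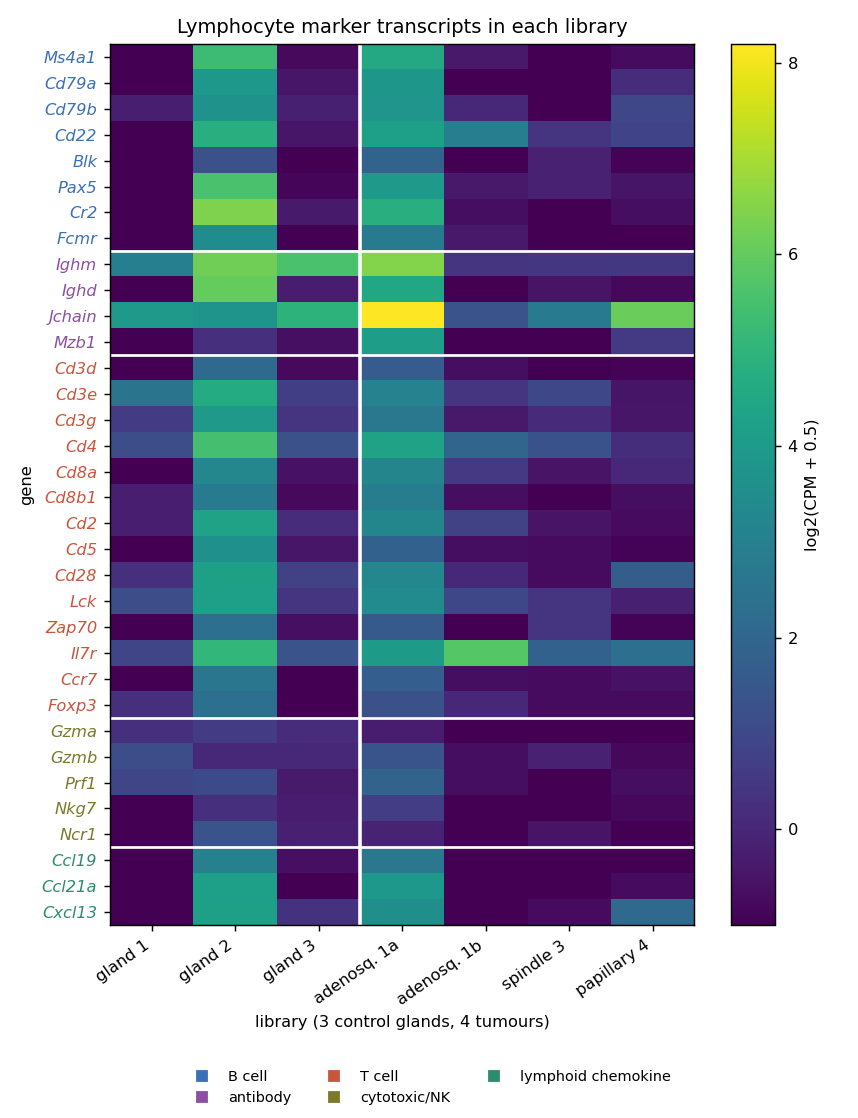
Level of each of the 34 genes (rows, in 5 lineage groups marked by the colour of the gene name) in each library (columns, glands left of the vertical white line, tumours right of it), as log2 of CPM plus 0.5. The columns of gland 2 and tumour 1a are bright over nearly all B and T cell genes, and Jchain is also bright in the papillary tumour and Il7r in tumour 1b.

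Promoters are shown for 4 of the genes, Cd79a, Cd22 and Cd3e, which had that arrangement, and Il7r, which did not, because the same short motifs can be looked up in each. RefSeq start sites on GRCm38.p6 gave windows of 250 bases before to 50 after the start for 23 of the 34 genes, in 28 windows. Both strands were searched for 3 motifs. CAGGAAG, a core of Ets family factors, lay in 9 of the 28 windows, those of Zap70, Lck (both its starts), Cd79a, Nkg7, Cd3e, Prf1, Il7r and Cd5, and in 13.3% of all 32851 windows. CCCNNGGGA, a motif of the B cell factor EBF1, lay in 1 window, that of Cd22, as a pair of overlapping matches, and in 6.56% of all windows. The octamer ATGCAAAT lay in 0 of the 28 and in 1.74% of all. No window held more than 1 kind of motif, and a match describes letters, not a bound site. The windows below run 5′ to 3′ on the gene's strand with the motif in capitals, which reads as its reverse complement in Cd3e and Il7r. Those of Cd22 and Il7r lie inside the gene spans of GENCODE release M21, whose starts are farther upstream.
Cd79a promoter, chr7:24897247-24897546, plus strand, Ets motif in capitals: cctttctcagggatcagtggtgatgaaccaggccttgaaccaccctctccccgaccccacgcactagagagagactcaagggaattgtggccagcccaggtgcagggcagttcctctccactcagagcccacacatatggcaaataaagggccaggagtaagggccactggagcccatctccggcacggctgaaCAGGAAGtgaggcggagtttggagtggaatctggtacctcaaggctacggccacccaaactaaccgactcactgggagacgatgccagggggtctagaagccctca
Cd22 promoter, chr7:30878979-30879278, minus strand, overlapping EBF1 motifs in capitals: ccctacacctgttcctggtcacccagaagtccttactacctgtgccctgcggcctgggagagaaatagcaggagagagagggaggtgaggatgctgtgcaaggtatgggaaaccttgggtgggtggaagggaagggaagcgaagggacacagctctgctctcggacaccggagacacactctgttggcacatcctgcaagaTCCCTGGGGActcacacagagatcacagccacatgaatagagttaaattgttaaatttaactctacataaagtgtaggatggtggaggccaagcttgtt
Cd3e promoter, chr9:45009562-45009861, minus strand, Ets motif in capitals: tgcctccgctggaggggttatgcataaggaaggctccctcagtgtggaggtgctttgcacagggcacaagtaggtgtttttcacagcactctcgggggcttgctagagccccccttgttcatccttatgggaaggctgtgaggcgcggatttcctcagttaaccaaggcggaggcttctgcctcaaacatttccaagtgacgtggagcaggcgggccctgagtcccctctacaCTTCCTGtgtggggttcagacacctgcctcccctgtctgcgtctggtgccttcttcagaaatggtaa
Il7r promoter, chr15:9529827-9530126, minus strand, Ets motif in capitals: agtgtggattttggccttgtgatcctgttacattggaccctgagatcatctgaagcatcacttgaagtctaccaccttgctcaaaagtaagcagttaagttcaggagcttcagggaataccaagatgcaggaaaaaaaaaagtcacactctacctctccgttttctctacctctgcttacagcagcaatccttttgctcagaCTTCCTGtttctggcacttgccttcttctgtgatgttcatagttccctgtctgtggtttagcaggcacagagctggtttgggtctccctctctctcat
Cd79a and Cd3e, with gland 2 and tumour 1a highest, and Il7r, without, hold the same Ets letters.

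The 8 B cell genes were high in gland 2 and tumour 1a and scarce in the rest. Ms4a1 (chr19:11249675-11266241), which encodes the surface protein CD20, measured 0, 38.6 and 0.0948 CPM in glands 1, 2 and 3 and 22.6, 0.272, 0 and 0.105 CPM in tumours 1a, 1b, 3 and 4. Gland 2 and tumour 1a were high and the other 5 libraries held at most 3 counts each. Cd79a (chr7:24897381-24902197), a signalling chain of the B cell receptor, measured 0, 14.5 and 0.237 CPM in the glands and 14, 0, 0 and 0.662 CPM in the tumours. Its partner Cd79b measured 0.354, 12.7 and 0.379 CPM in the glands and 13.4, 0.544, 0 and 1.43 CPM in the tumours. For both chains the papillary tumour was the highest of the remaining libraries, at 19 and 41 counts.

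Pax5 (chr4:44524757-44710487), the transcription factor that holds B cell identity, measured 0, 46.6 and 0.0474 CPM in glands 1, 2 and 3 and 15.1, 0.272, 0.394 and 0.209 CPM in tumours 1a, 1b, 3 and 4. Cr2 (chr1:195136811-195176716), a complement receptor of mature B cells and follicular dendritic cells, measured 0, 85.2 and 0.284 CPM in the glands and 26.7, 0.136, 0 and 0.139 CPM in the tumours. Groups overlapped for both genes, because each group had 1 high library. Cd22 (chr7:30865402-30880342), an inhibitory lectin of B cells, differed from the rest of the group in tumour 1b: it measured 0, 27.7 and 0.237 CPM in the glands and 17.9, 7.07, 0.788 and 1.29 CPM in the tumours. The 52 counts of Cd22 in tumour 1b stood beside 0 of Cd79a and 2 of Ms4a1 there, and 9.5% of Cd22 exon bases lie under an exon of the other strand (Gm29439), which these libraries cannot separate. Blk, a Src family kinase, and Fcmr, a receptor for IgM, peaked at 3.32 CPM in tumour 1a and 10.5 CPM in gland 2, and neither passed 0.394 CPM in the other 5 libraries.

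The 4 genes of antibody production did not move as 1 group. Ighm (chr12:113418558-113422730), the constant region of IgM, measured 7.43, 72.7 and 46.3 CPM in glands 1, 2 and 3 and 89, 0.816, 0.887 and 0.906 CPM in tumours 1a, 1b, 3 and 4. Glands 1 and 3 thus held Ighm at 21 and 977 counts with 0 and 2 counts of Ms4a1, and each tumour other than 1a was below every gland. Ighd (chr12:113406604-113416324), the IgD constant region typical of naive B cells, followed Ms4a1 instead: 0, 64.7 and 0.332 CPM in the glands and 22.5, 0, 0.197 and 0.0697 CPM in the tumours.

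Jchain (chr5:88519809-88527891), which joins IgA and IgM into polymers in plasma cells, was most abundant in tumours. It measured 14.9, 13 and 30.3 CPM in glands 1, 2 and 3 and 293, 2.04, 6.6 and 68.2 CPM in tumours 1a, 1b, 3 and 4. Tumour 1a and the papillary tumour lay above every gland, and tumours 1b and 3 below every gland. Mzb1, a chaperone of antibody assembly on chromosome 18, had 196 counts in tumour 1a (16.7 CPM), 28 in the papillary tumour, 23 in gland 2, 3 in gland 3 and 0 elsewhere. Its counts are uncertain, since 51.4% of its 75-base windows recur in another annotated gene, listed as SPATA24.

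The heavy chain classes differed between the libraries rich in Jchain. These class genes were picked once their values had been seen, and levels are compared between genes per kilobase of exon. The ratio of Ighg1 (IgG1) to Ighm was 34.7 in tumour 1a, 13.7 in tumour 1b (6 counts of Ighm), 7.02 in the papillary tumour and 0.808 in the spindle cell tumour, and 0.243, 0.0656 and 0.284 in glands 1, 2 and 3. Igha (IgA) over Ighm was 165 in the papillary tumour (26 counts of Ighm) and 12.4 in the spindle cell tumour (9 counts of Ighm). It was 0.589 in tumour 1b, 0.13 in tumour 1a, and 1.41, 0.194 and 0.816 in glands 1, 2 and 3. Ighg1 itself stood at 4240 CPM in tumour 1a, from 49813 counts, and at most 18.1 CPM elsewhere, and Igha at 212 CPM in the papillary tumour and at most 53.5 CPM elsewhere. Ighm over Ighd was 1.13 in gland 2, 3.99 in tumour 1a and 141 in gland 3. The light chain gene Igkc measured 33.6, 75.1 and 175 CPM in the glands and 4195, 18.4, 24.2 and 278 CPM in the tumours, again highest in tumour 1a and next in the papillary tumour. In the test of all tumours against all glands none of these passed (edgeR adjusted p = 0.185 for Ighg1, 0.262 for Igkc and 0.665 for Igha). Against the glands the 2 adenosquamous tumours gave Ighg1 a log2 fold change of 7.81 (SE 2.13, edgeR adjusted p = 0.07), which DESeq2 passed and limma-voom did not.

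**Figure D2:**
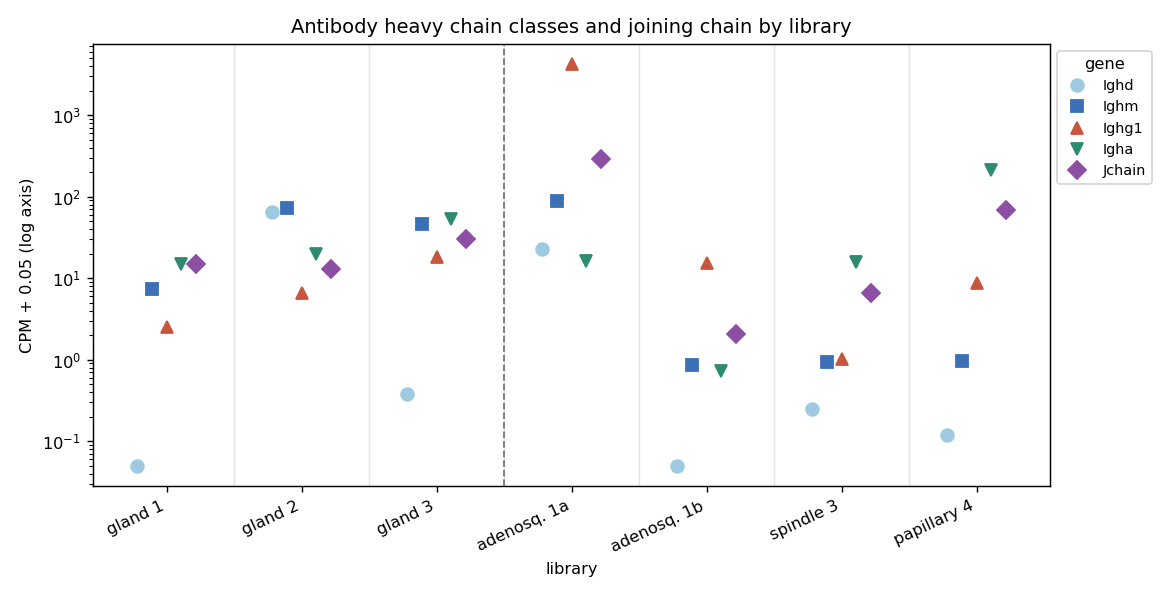
CPM plus 0.05 on a log axis for Ighd, Ighm, Ighg1, Igha and Jchain in each library, 1 point per gene and library, glands left of the dashed line. Ighg1 stands at 4240 CPM in tumour 1a, Igha at 212 CPM in the papillary tumour, and Ighd is near Ighm only in gland 2.

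Of the 14 T cell genes, 13 had the same 2 highest libraries, the exception being Il7r. Cd3e (chr9:44998740-45009627), a signalling chain of the T cell receptor, measured 5.31, 24.5 and 1.14 CPM in glands 1, 2 and 3 and 7.92, 0.816, 1.48 and 0.209 CPM in tumours 1a, 1b, 3 and 4. The gland 1 value rests on 15 counts. Its neighbours Cd3g and Cd3d, whose starts lie 1355 bases apart on opposite strands, peaked at 14.9 and 3.97 CPM in gland 2 and measured 5.96 and 2.72 CPM in tumour 1a. All 3 chains were below 1.5 CPM in tumours 1b, 3 and 4.

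Cd4 (chr6:124864692-124888221), the helper T cell co-receptor that some macrophages and dendritic cells also carry, measured 1.77, 44.1 and 1.94 CPM in the glands and 19.2, 3.54, 1.97 and 0.662 CPM in the tumours. Cd8a (chr6:71373427-71379173), the cytotoxic T cell co-receptor, measured 0, 8.98 and 0.19 CPM in the glands and 8.51, 0.952, 0.197 and 0.523 CPM in the tumours. Cd8b1, its partner chain, was 6.53 CPM in gland 2 and 6.81 CPM in tumour 1a and at most 0.354 CPM elsewhere. Per kilobase, Cd4 over Cd8a was 4.43 in gland 2 and 2.04 in tumour 1a. The CPM of Cd4 was 2.29-fold higher in gland 2 than in tumour 1a (95% counting interval 1.99 to 2.65), while that of Cd8a was 1.06-fold (0.838 to 1.34). Counting intervals compare these 2 libraries, not the conditions, and cover counting error only.

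Foxp3 (chrX:7573644-7595245), the factor of regulatory T cells, measured 0.707, 4.57 and 0 CPM in the glands and 1.96, 0.544, 0.0985 and 0.105 CPM in the tumours. Foxp3 over Cd4 per kilobase was 0.0912 in gland 2 and 0.0897 in tumour 1a, but 18.7% of Foxp3 exon bases lie under exons of the other strand and 12.5% of its 75-base windows recur in Flicr. Ccr7, the receptor for CCL19 and CCL21 on naive and central memory T cells, measured 5.55 CPM in gland 2, 2.89 CPM in tumour 1a and at most 0.174 CPM elsewhere. Cd2 (an adhesion receptor), Cd5 (an inhibitory co-receptor), Cd28 (the main co-stimulator) and the receptor kinases Lck and Zap70 reached 19, 11.9, 18.4, 17.9 and 4.6 CPM in gland 2. The same 5 genes reached 8.85, 3.15, 9.11, 10.2 and 2.55 CPM in tumour 1a. Of these 5, Cd28 was the 1 gene with over 2 CPM in another library, at 2.79 CPM from 80 counts in the papillary tumour.

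Il7r (chr15:9505788-9530176), the interleukin 7 receptor chain of naive and memory T cells and of innate lymphoid cells, was the 1 gene of the 34 with its highest level in tumour 1b. It measured 1.41, 33.3 and 2.09 CPM in glands 1, 2 and 3 and 15.7, 54, 3.15 and 4.6 CPM in tumours 1a, 1b, 3 and 4. Tumour 1b had 397 counts of Il7r beside 6 of Cd3e, 26 of Cd4 and 0 of Zap70, and all 4 tumours lay above glands 1 and 3. Beside Il7r, tumour 1b also held Tcf7 and Lef1, factors of T cells and of Wnt signalling in epithelium, at 18.4 and 17.3 CPM. It had 0 counts of the T cell receptor constant region Trac and 6 of another, Trbc2. Bcl11b, also listed with T cell receptor genes, was at 12.5 CPM there. These further genes were picked after their values were seen, and which cells carried them was not tested.

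The 5 cytotoxic and NK genes were scarce in every library. Gzma and Gzmb, the granzymes, peaked at 1.01 CPM in gland 2 and 2.13 CPM in tumour 1a. Prf1, the pore-forming perforin, peaked at 3.32 CPM in tumour 1a, and Nkg7, a granule protein, at 1.11 CPM there. Ncr1, the receptor NKp46 of NK cells, peaked at 2.08 CPM in gland 2, from 66 counts, and was 4.89-fold lower in tumour 1a (95% counting interval 1.99 to 15.6). Gzma had 2, 32 and 13 counts in glands 1, 2 and 3, 4 counts in tumour 1a and 0 in tumours 1b, 3 and 4. It was the 1 gene of the 34 with every tumour below every gland, against 12.2% of all genes with at least 15 counts, and 0 of the 34 had every tumour above every gland, against 13%. Counts of 0 allow up to 0.408, 0.296 and 0.105 CPM in tumours 1b, 3 and 4.

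The 3 lymphoid chemokines were near 0 outside the same 2 libraries, with 1 exception. Ccl21a (chr4:42772860-42773993), made by lymphatic vessels and lymph node stroma, measured 0, 17.6 and 0 CPM in glands 1, 2 and 3 and 14.5, 0, 0 and 0.105 CPM in tumours 1a, 1b, 3 and 4. Ccl19 measured 7.44 CPM in gland 2, 5.79 CPM in tumour 1a, 0.142 CPM in gland 3 and 0 elsewhere. Near-identical copies share 61.3% of the 75-base windows of Ccl21a and 45.3% of those of Ccl19, so the split of reads among copies is uncertain. Cxcl13 (chr5:95956951-95961068), the chemokine of B cell follicles, measured 0, 18.3 and 0.758 CPM in the glands and 11.5, 0, 0.0985 and 3.9 CPM in the tumours. The papillary tumour thus ranked next for Cxcl13, with 112 counts, while it held 3 counts of Ccl21a and 0 of Ccl19.

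Between gland 2 and tumour 1a every gene of the 34 but Jchain and Mzb1 differed by less than 5-fold. The CPM ratio of gland 2 to tumour 1a had a median of 1.59 over the 8 B cell genes, 2.08 over the 14 T cell genes and 1.29 over the 3 chemokines. Over the 4 antibody genes it was 0.431 and over the 5 cytotoxic genes 0.627. Counting intervals lay above 1 for 21 of the 34 genes and below 1 for 6. The ratio ran from 0.0435 for Mzb1 and 0.0442 for Jchain to 3.77 for Cd5 and 4.89 for Ncr1. Cr2, Pax5 and Ighd were 3.19-fold, 3.09-fold and 2.88-fold higher in gland 2, and Cd79a (1.03-fold, 95% counting interval 0.86 to 1.24) and Cd79b (0.951-fold, 0.789 to 1.15) differed by less than counting error.

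**Figure D3:**
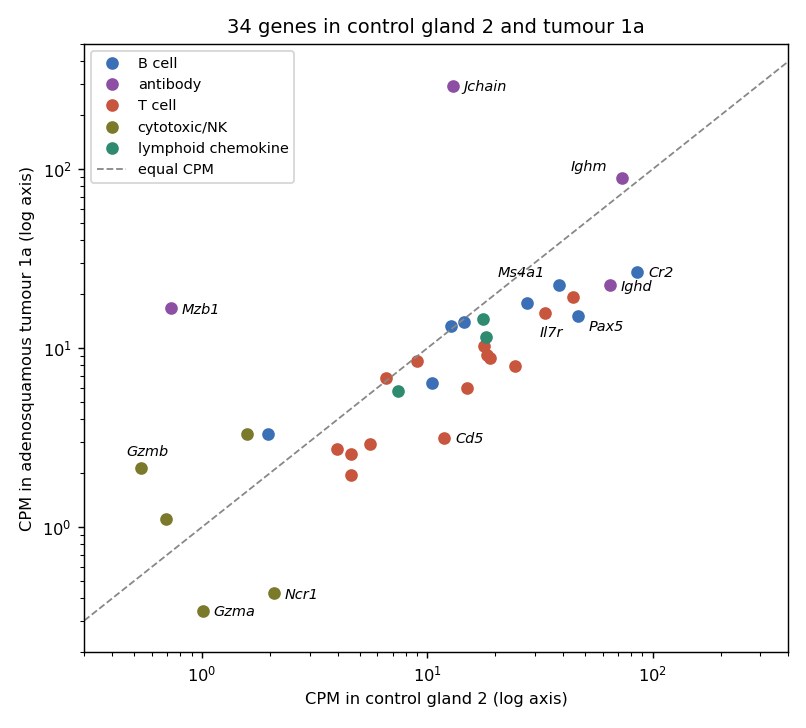
CPM in control gland 2 (x) against adenosquamous tumour 1a (y), both on log axes, 1 point per gene coloured by lineage, with a dashed line of equal CPM. Of the 34 genes 25 lie below the line, toward gland 2, and Jchain and Mzb1 stand farthest above it.

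The 2 adenosquamous tumours had like levels of Ptprc, the surface phosphatase CD45 of all leukocytes, and unlike levels of lymphocyte genes. Ptprc measured 34.3, 290 and 27.7 CPM in glands 1, 2 and 3 and 152, 160, 13.5 and 18.4 CPM in tumours 1a, 1b, 3 and 4, so tumour 1a over 1b was 0.951 (95% counting interval 0.883 to 1.02). Against that, tumour 1a exceeded 1b by 83.2-fold in Ms4a1 (22.8 to 691), 109-fold in Ighm (49.9 to 298), 144-fold in Jchain (86.9 to 257), 9.7-fold in Cd3e (4.29 to 27.1) and 5.44-fold in Cd4 (3.62 to 8.51). For Cd79a, Ighd, Ccl21a and Cxcl13, at 0 counts in tumour 1b, the level in 1a was at least 34.4-fold, 55.1-fold, 35.5-fold and 28.2-fold higher, taking a floor of 3 counts, with lower 95% counting limits of 27.7, 44.5, 28.5 and 22.6. Il7r went the other way, at 0.29 of the 1b level (0.242 to 0.346).

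Other leukocyte markers differed between that pair of tumours too. The 7 macrophage markers summed to 596 CPM in tumour 1a and 2299 CPM in 1b, against 101 to 267 CPM in glands, and the 6 neutrophil markers to 44.6 and 74.3 CPM, against 1.06 to 2.87 CPM. Lysozyme, Lyz2, made most of the macrophage difference in summed CPM, at 292 and 1793 CPM. Adgre1, Cd68, Cd14, C1qa and Mrc1 were also lower in 1a, at 0.679, 0.422, 0.255, 0.516 and 0.624 of the 1b level. Csf1r, the receptor for macrophage growth factor, did not share that direction, at 93.8 and 85.2 CPM. These marker genes and Itgax below were picked after seeing their values. Ly6g, a defining neutrophil marker, was at 0 counts in all 7 libraries. The 5 dendritic cell markers had a mean log2 CPM of 1.61 in 1a and 0.59 in 1b. Their sums, 23.9 and 119 CPM, were carried by Itgax (13 and 116 CPM), an integrin chain that macrophages also carry, and the other 4 were lower in 1b. Set against Ptprc within each library, the summed CPM of the 8 B cell genes was 78.3% of Ptprc in tumour 1a, 82% in gland 2, 5.35% in 1b, and between 1.03% and 21% in the other 4. For the T cell genes the same share was 69.2% in tumour 1a, 75.2% in gland 2, 39.9% in 1b, where Il7r alone made 33.7%, and 33.8% to 70.8% in the other 4. The part of tissue sampling in these differences was not tested.

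**Figure D4:**
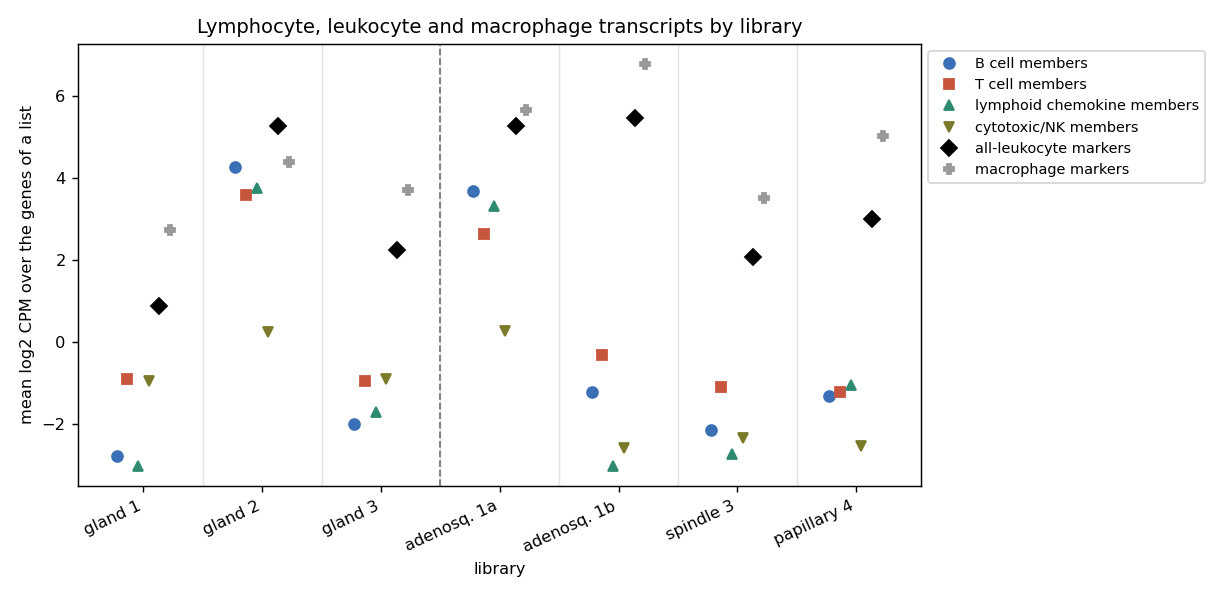
Mean log2 CPM over the genes of a list in each library, 1 point per list, for 4 of the 5 groups of lymphocyte genes and for lists of all-leukocyte and macrophage markers, glands left of the dashed line. The all-leukocyte mean is 5.26 in gland 2, 5.26 in tumour 1a and 5.45 in tumour 1b, while the B cell mean is 4.26, 3.68 and -1.22 in the same libraries.

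The spindle cell and papillary tumours, with 1 library each and no test, held few transcripts of the B and T cell genes. Summed over the 8 B cell genes the spindle cell tumour had 1.58 CPM and the papillary tumour 3.87 CPM, against 0.354, 238 and 1.28 CPM in glands 1, 2 and 3. Both tumours were thus above glands 1 and 3 in the B cell sum, but the sums of gland 1 and the spindle cell tumour rest on few counts. The only B cell count in gland 1 was 1 of Cd79b, where a floor of 3 counts is 1.06 CPM per gene. Those of the spindle cell tumour were 8 of Cd22, 4 of Blk and 4 of Pax5. For the 14 T cell genes the sums were 9.56 and 10.03 CPM, against 13.4, 218 and 9.39 CPM, close to glands 1 and 3. The 4 antibody genes set the pair apart, with 7.69 CPM in the spindle cell tumour and 70.1 CPM in the papillary one. Within the T cell sums, Il7r was 3.15 and 4.6 CPM and Cd4 1.97 and 0.662 CPM. The spindle cell tumour also had 23.5 CPM of Il7, the ligand of the receptor encoded by Il7r, against at most 3.97 CPM in any other library, a gene picked after its values were seen.

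All tumours were then compared with all glands. The 4 tumours and 3 glands were tested with edgeR's quasi-likelihood F test over all genes kept by a filter on low counts, with Benjamini-Hochberg adjustment and a threshold of 0.05. Of the 34 genes 12 passed the filter, and 0 of these 12 passed the test, against 8.47% of the 14149 genes tested. At unadjusted p under 0.05 the count was also 0 of 12, against 28.9%. DESeq2 and limma-voom likewise called 0 of the 12, with 0 and 1 (Ighm) at unadjusted p under 0.05. The filter keeps a gene that is high in 3 libraries, so most genes high in only 2 were not tested, and without any filter 0 of 34 passed, against 2.92% of all genes, with 0 of 34 at unadjusted p under 0.05, against 17.3%.

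The SD was above the mean for the genes named next, except Jchain and Ighm in glands. Mean Cd3e was 10.3 CPM in the 3 glands with an SD of 12.4, and 2.6 CPM in the 4 tumours with an SD of 3.58, a log2 fold change of -2.001 (SE 1.303, edgeR adjusted p = 0.342). Mean Jchain was 19.4 ± 9.51 CPM in glands and 92.4 ± 137 CPM in tumours, a log2 fold change of 2.25 (SE 1.48, adjusted p = 0.347). These were the 2 smallest adjusted p-values of the 12. Cd4 was 15.9 ± 24.4 CPM in glands and 6.35 ± 8.67 CPM in tumours, Ighm 42.2 ± 32.8 and 22.9 ± 44.1 CPM, and Il7r 12.3 ± 18.2 and 19.4 ± 23.8 CPM. Their log2 fold changes were -1.35 (SE 1.40), -0.89 (SE 1.71) and 0.62 (SE 1.32). Without a filter the median log2 fold change of the 34 was -1.04, with 4 values above 0 and 30 below, and that of all genes was 0.25.

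The sign of the median over the 34 genes turned on which of the 2 high libraries was in the fit. Of the genes just named, Cd4 changed sign in the unfiltered fits (1.83 without gland 2, -3.06 without tumour 1a). Cd3e, Jchain, Ighm and Il7r kept their signs in both of these fits. Without gland 2, the unfiltered median of the 34 was 3.11, with 29 values above 0, and that of all genes was 0.46. No gene of the 34 passed (edgeR, against 2.51% of all genes), and 6 were at unadjusted p under 0.05, against 15.2%. Without tumour 1a the median was -3.71, with 31 values below 0. Then 1 gene, Ighm, passed, against 4.06% of all genes, and 20 were at unadjusted p under 0.05, against 17.4%.

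With both libraries left out, a fit added after seeing the data, the median was 0.13, with 18 values above 0 and 16 below. Then 2 of 34 passed, against 6.04% of all genes, and 4 were at unadjusted p under 0.05, against 16.4%. The 2 were Ighm, lower in tumours (log2 fold change -4.88, edgeR adjusted p = 1.39e-05), and Il7r, higher in tumours (log2 fold change 3.53, adjusted p = 0.0115). With the count filter on, Ighm still passed (-4.96, adjusted p = 0.0411) and Il7r did not (3.49, adjusted p = 0.27). Cd22 had 4.08 (adjusted p = 0.134). The 2 glands left had summed muscle markers of 12810 and 24850 CPM, against 0.836 to 27.6 CPM in the 3 tumours left, and the part of that gap in these values was not tested.

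**Figure D5:**
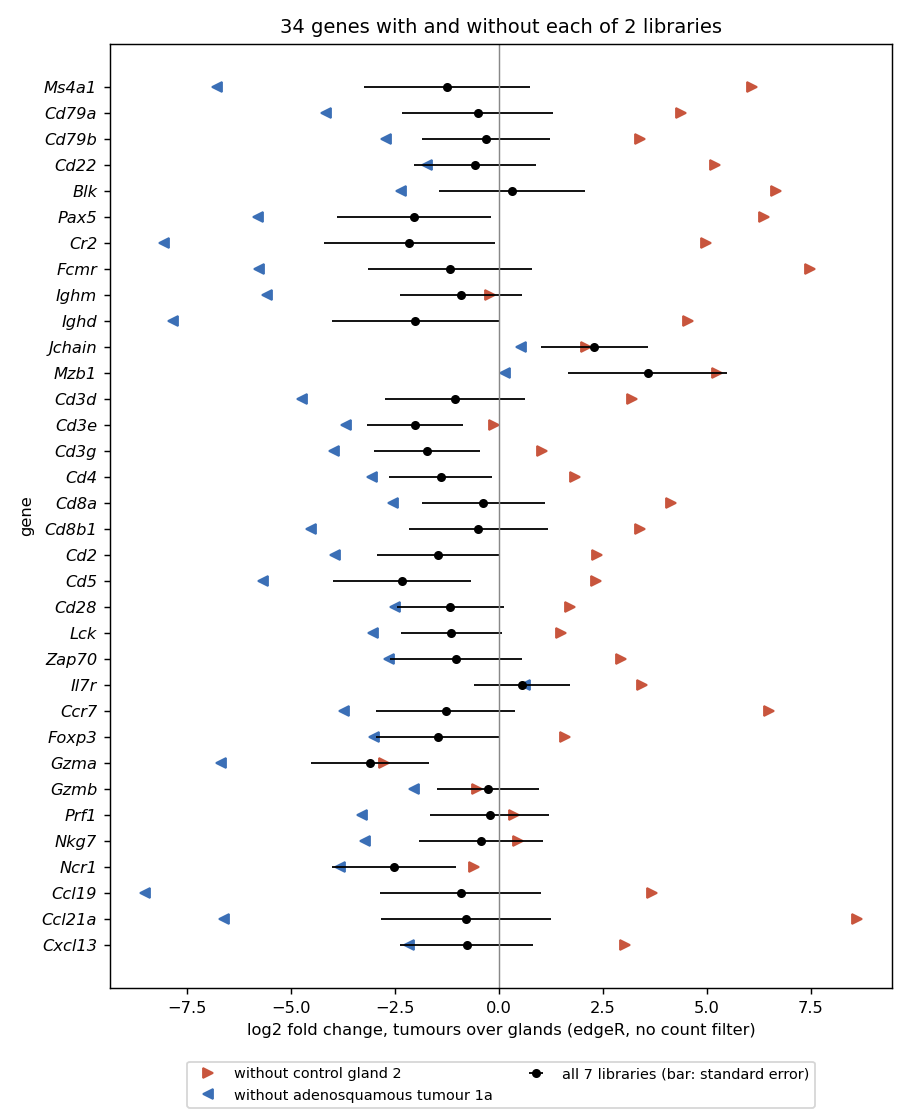
Log2 fold change of each of the 34 genes, tumours over glands, from edgeR with no count filter. Black points with bars of 1 standard error use all 7 libraries, right-pointing red triangles leave out control gland 2, and left-pointing blue triangles leave out tumour 1a. Without gland 2 there are 29 values above 0 and without tumour 1a there are 31 below 0.

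The adenosquamous tumours, the only tumour type with more than 1 library, were also compared with the 3 glands. With a group of 2 libraries the filter keeps genes that are high in only 2. A gene high in gland 2 and tumour 1a alone had 1 high library in each group, so the test could hardly call it. Of the 34 genes 29 were tested, and 0 of 29 passed, against 10.4% of the 14708 genes tested, with 0 of 29 at unadjusted p under 0.05, against 29.9% (edgeR). DESeq2 and limma-voom called 0 of 29 as well, each with 0 at unadjusted p under 0.05. The median log2 fold change of the 29 was -0.23, beside -0.04 for all genes tested. Jchain had the smallest adjusted p (log2 fold change 2.87, SE 1.49, adjusted p = 0.252), and its sign depended on tumour 1a, without which it was -3.29. Il7r had 1.40 (SE 1.29, adjusted p = 0.506), and Cd22 0.32 (SE 1.78, adjusted p = 0.923). Without gland 2, 8 of the 34 were tested and 2 passed, against 10.8% of all genes, Il7r (4.14, adjusted p = 0.0256) and Cd22 (5.86, adjusted p = 0.0215).

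Further genes of each pathway came from 6 lists drawn up by function, with 18, 10, 9, 18, 6 and 9 tested in the adenosquamous comparison. Of these genes 4 passed, where 10.4% of all genes tested did. In the comparison of all tumours edgeR passed 0 of the 10, 10, 5, 8, 4 and 6 genes tested, in the order given here. At unadjusted p under 0.05 there were 1, 2, 2, 0, 1 and 0, beside 28.9% of all genes. There DESeq2 passed 4 (Ebf1, Derl3, Prdm1 and Havcr2) and limma-voom 1 (Ebf1). In B cell development and signalling 1 of 18 passed: Ebf1, a factor of B cells and also of fat cell precursors, was lower (156 ± 32.2 CPM in glands, n = 3, 29.1 CPM on average in the 2 tumours, edgeR adjusted p = 0.0427). Its libraries, at 176, 173 and 119 CPM in glands 1, 2 and 3 and 42.4, 15.8, 3.55 and 3.38 CPM in tumours 1a, 1b, 3 and 4, did not have the gland 2 and tumour 1a arrangement, which 11 of the 18 did. The 5 fat cell markers summed to 118 and 17.3 CPM in tumours 1a and 1b, against 2630 to 4385 CPM in glands, and their part in the Ebf1 result was not tested.

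In antibody secretion 1 of 10 genes tested passed, of 14: Prdm1, the plasma cell factor BLIMP1 that other cell types also use, was higher at 23.3 and 28.2 CPM in tumours 1a and 1b against 2.48 to 3.32 CPM in glands (adjusted p = 0.0183). Tumour 1b had that level with 2.04 CPM of Jchain. In T cell activation 2 of 9 tested passed, of 12: Tnfrsf9, the co-stimulator 4-1BB (13.2 and 18.8 CPM against 0 to 0.693 CPM, adjusted p = 0.0232), and Havcr2, TIM-3, which macrophages and dendritic cells also carry (9.87 and 23.7 CPM against 0.995 to 3.12 CPM, adjusted p = 0.0497). Both were higher in tumour 1b than in 1a, with 1a over 1b at 0.703 for Tnfrsf9 and 0.417 for Havcr2. Which cells carried them was not tested. All 4 of these calls, Ebf1 included, were lost without gland 3 and without tumour 1b, where 0 genes passed in all (3471 and 2994 at unadjusted p under 0.05), and all 4 without tumour 1a, with adjusted p between 0.0592 and 0.101. Without gland 1 Prdm1 alone still passed, and Havcr2 also lost its call without gland 2 (adjusted p = 0.0529), with upper-quartile scaling (0.0504) and with mitochondrial genes left out (0.0512).

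In T cell receptor signalling 0 of 18 tested passed, of 19, with 0 at unadjusted p under 0.05, and 16 of the 19 had gland 2 and tumour 1a as the 2 highest libraries. Txk, a kinase of T cells, measured 1.41, 14.5 and 0.901 CPM in the glands and 3.83, 1.36, 0.69 and 0.697 CPM in the tumours (log2 fold change over all tumours -1.81, adjusted p = 0.297). In cytotoxic and NK genes 0 of 6 tested passed, of 14, with 0 at unadjusted p under 0.05. For these lists and the next one, DESeq2 and limma-voom also passed 0 in the adenosquamous comparison. Klrk1, the receptor NKG2D, measured 3.89, 4.19 and 1.33 CPM in the glands and 1.45, 0.544, 0 and 0.348 CPM in the tumours (log2 fold change over all tumours -2.40, adjusted p = 0.166), and Klrd1, CD94, had -2.26 (adjusted p = 0.264).

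In lymphoid tissue organisation 0 of 9 tested passed, of 15, with 0 at unadjusted p under 0.05. Cxcl12, a stromal chemokine, measured 34, 81 and 99 CPM in the glands and 48.8, 23, 28.6 and 3.28 CPM in the tumours (log2 fold change over all tumours -1.47, adjusted p = 0.245). Ltbr, the lymphotoxin beta receptor, had 0.79 (adjusted p = 0.261). The list's sum of 5227 CPM in the papillary tumour, against 58.4 to 323 CPM in the other 6, was almost all Glycam1 (5170 CPM), which mammary epithelium also secretes.

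Genes outside all lists whose log2 CPM ran most like the B cell mean over the 7 libraries were Il9r (Pearson r = 0.996), Itgb7 (0.98), Rnase6 (0.98), Havcr1 (0.977) and Kmo (0.976), among 13019 candidates. For the T cell mean they included Traf3ip3 (0.984), Kmo (0.983), Il22ra2 (0.98) and Il9r (0.98). These correlations describe 7 libraries, of which 2 are high, and rest on those 2. Itgb7, an integrin chain of gut-homing lymphocytes, measured 10.1 CPM in both gland 2 and tumour 1a and at most 1.09 CPM elsewhere. Traf3ip3 measured 22.6 CPM in gland 2, 10.3 CPM in tumour 1a and at most 2.72 CPM elsewhere.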

How the data were processed

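RNA-seq (TruSeq v2, strand not marked, paired 75-base reads) covered 3 control glands and 4 tumours, 1 library each. The authors' deposited tables have 1 value column headed TPM, taken here to hold expected counts and rounded to whole numbers, because its sums differ (5148438 to 35631279) and 2.34% to 6.14% of values are not whole; every CPM rests on that reading. STAR 2.5, RSEM 1.3, limma and GRCm38 are named, without roles, per the submitters' processing notes; the sources used here give neither annotation release nor strand setting. Positions and exon lengths came from GENCODE M21 (50376 of 50600 identifiers matched), promoters from RefSeq.

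Tests used edgeR 4.0.16 in R 4.3.3 (quasi-likelihood F test, TMM, filterByExpr with a minimum count of 10 and minimum total of 15, Benjamini-Hochberg over all genes, two-sided, threshold 0.05). They were also run on simulated data with no outlying library, which do not cover genes high in only part of a group. SE is the log2 fold change over the square root of F. Log2 CPM used a prior count of 2. Alternatives were DESeq2 1.42.0, limma-voom (limma 3.58.1), other scalings and filters, mitochondrial genes left out, each library left out, and a prior count of 0.5. Counting intervals are exact conditional binomial at 95% and cover counting error only, since reads without molecular identifiers are not independent molecules. Libraries of a group were not repeats of one another (chi-square per degree of freedom at least 93.7).

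The 34 genes and all lists were chosen with earlier results of these data known. Named were all 34, Ptprc, up to 4 genes per pathway list that passed in either comparison or otherwise the 2 with the smallest p, and the 5 genes outside the lists most like the B and T cell means. Other cell types are given as list sums, defining markers at 0 and, where said, genes picked after seeing values. Of 166 list genes 165 had exactly 1 row. A pair of genes that this rule named is not reported here.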

Additional observations from a re-analysis of the deposited data

Results flagged for a closer look

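Among the 4 tumours, tumour 1a stood apart from the other 3 in 10 of 39 log2 CPM values examined. The gap exceeded Dixon's 95% critical value for 4 samples in each of the 10. These were the mean of the B cell genes (3.68 in tumour 1a) and of the cytotoxic and NK genes (0.26), and 8 single genes. The B cell genes were Pax5 (3.93) and Cr2 (4.75), and the antibody gene was Ighm (6.48). The T cell genes were Cd5 (1.71) and Ccr7 (1.59), the cytotoxic gene was Gzma (-1.11), and the chemokines were Ccl19 (2.56) and Ccl21a (3.87). The Gzma value rests on 4 counts and the Ccl19 value on 68, each beside 0 in the other 3 tumours. With such zeros any count in tumour 1a would have been flagged. The 39 values share the same 4 libraries and are not independent, and groups of 3 glands were not examined this way. The genes were chosen with earlier results of these data known, so the 10 cannot be set against a rate of chance.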

How the results depend on the processing

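Genes of the 34 that passed numbered 0 in either direction under all 7 alternatives of tool, scaling, filter or gene set, in both comparisons, with 0 to 2 at unadjusted p under 0.05. Leaving out single libraries gave 0 to 1 lower among all tumours. The 1 was Ighm without tumour 1a, of 10 tested, where 899 of all 15246 genes passed. Leaving out both gland 2 and tumour 1a gave 1 lower, of 5 tested, where 486 of 13962 genes passed. Among adenosquamous tumours, leaving out 1 gland gave 0 to 2 higher. The 2 were Il7r and Cd22 without gland 2, of 8 tested, where 1498 of 13845 genes passed. Over all genes, 1199 passed in the tumour comparison, 3403 with DESeq2, 486 with both libraries left out and 97 to 1351 with 1 left out. In the adenosquamous comparison 1525 passed, 3562 with DESeq2, 2508 with no filter and 0 to 1498 with 1 left out; an arm of 1 library was then assumed to vary like the others. Log2 fold changes that changed sign with 1 library left out ranged, for all tumours, from -2.70 to 3.33 (Cd79b), -1.67 to 5.15 (Cd22), -3.005 to 1.75 (Cd4), -0.91 to 0.056 (Cd8a), -1.96 to 2.28 (Cd2), -2.50 to 1.61 (Cd28), -3.01 to 1.40 (Lck), -0.66 to 3.39 (Il7r) and -1.28 to 2.94 (Cxcl13). Cd4 was 0.10 with both left out. The filter dropped Cd8a without gland 2 and without tumour 1a (4.13 and -2.56 unfiltered), and Cd2 and Cxcl13 without tumour 1a (-3.94 and -2.16 unfiltered). For adenosquamous tumours the ranges were -3.29 to 3.90 (Jchain), -0.50 to 5.86 (Cd22) and -5.73 to 1.06 (Ighm), and Ighm was -1.71 with limma-voom; the cause was not tested. No paired analysis was possible because glands and tumours share fewer than 2 replicate numbers. Depth limits gland 1 most, with 3 of the 34 genes at 10 counts or more.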
